A study of Mus musculus with 2 samples.

Results

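Interferon-responsive microglia were taken here as single cells that carried the transcripts of microglia together with at least 3 unique molecular identifiers (UMIs, each 1 captured RNA molecule) of the interferon-response genes Ifit2, Ifit3, Rsad2 and Cxcl10. A cell was kept when it had 200 to 7500 detected genes and at most 5% of its UMIs in mitochondrial genes. It also needed 2 or more UMIs summed over P2ry12, Tmem119, Siglech, Gpr34, Fcrls and Sall1, no more than 1 UMI of the proliferation genes Mki67 and Top2a, and no UMI of the macrophage genes Ms4a7 and F13a1 or of the T cell genes Cd3d, Cd3e and Cd3g. The rule found 287 cells among 27418 in the series and among 3698 microglia, which are the cells that met all conditions but the interferon one. The remaining 3411 cells, with an interferon sum of 0 to 2, are called other microglia. Since the cells were chosen by their own UMI counts, their levels of the genes in the rule are a description, and no test was made on them.

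The cells were CD45+ cells sorted from mouse thalamus (C57B6/J) after cortical ablation injury (CAI), in which cortex was removed by aspiration. The thalamus, which is connected to the removed cortex, was collected on day 21. In 1 library the mice had received control Ab (normal rat IgG) and in the other anti-CD9 Ab (clone KMC8), given from day 7 to day 19 at 1 μg/μl through a cannula into the right thalamus, so that the sampled tissue had been pierced in both groups. The purpose was to see how microglia in the thalamus differ when CD9, a membrane protein of reactive microglia, is bound by an antibody. Mice were stated to be 12 weeks old and no genetic change was given. Each library is a pool of mice, 4 per thalamus library where the methods state a number, and no uninjured or untreated library is part of the series. With 1 library per antibody, the antibody, the pool of mice and the library cannot be told apart, no test was possible, and every 95% interval below covers counting error only.

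The control Ab library held 12245 cells and 38042608 UMIs, and the anti-CD9 Ab library 15173 cells and 40825201 UMIs. Interferon-responsive microglia numbered 105 under control Ab and 182 under anti-CD9 Ab, beside 2353 and 1058 other microglia. They were deeper than the other microglia, with a median of 5723 UMIs per cell (803 to 37757) against 2651 under control Ab and of 4024 (791 to 13594) against 3132 under anti-CD9 Ab. A minimum of 3 UMIs is met more easily by a deep cell, so shares are also given after each cell was thinned at random to a fixed number of UMIs. Cells that resembled simulated pairs of cells (predicted doublets) were 6.67% of the interferon-responsive microglia under control Ab but 30.2% under anti-CD9 Ab, against 4.80% and 8.41% of the other microglia. A total of 54 barcodes occurred in both libraries, none of them in an interferon-responsive microglial cell.

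Microglia are the resident macrophages of the brain parenchyma. Cells that bind type I interferon through the receptor Ifnar1 and Ifnar2 activate the kinases Jak1 and Tyk2 and, through them, a complex of transcription factors that binds a DNA element called the interferon-stimulated response element (ISRE) and turns on antiviral genes. A small population of microglia with this signature is known from injury, ageing and disease models, and is usually described apart from damage-associated microglia, which carry Spp1, Cst7, Lpl and Apoe.

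Many, but not all, of the genes that define or lead the population had a match to the core of this element in the promoter window searched. Promoter windows of 250 bases before to 50 bases after each gene's start (RefSeq sequence, build GRCm38.p6) were searched on both strands for the ISRE core, GAAANNGAAA, and for a site of the inflammatory factor NF-kB, GGGANTTNCC. The ISRE core occurred in 3.99% of 27025 promoters, but in 3 of the 4 interferon genes of the rule (not Ifit2) and in 8 of 12 matched genes among the 15 highest over other microglia in both libraries. It occurred in 22 of 40 matched genes of a list of interferon-stimulated genes outside the rule, in 9 of 10 interferon gamma GTPases, in 1 of 16 damage-associated genes, in 0 of 10 homeostatic microglia genes and in 0 of 6 chemokines outside the rule. The following stretches, each written 5′ to 3′ on the gene's strand, are shown because they belong to genes on which the results below turn, and capitals mark every match to either motif, where overlapping matches run together.
Ifit3: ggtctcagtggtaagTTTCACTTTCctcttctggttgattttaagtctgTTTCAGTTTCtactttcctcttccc
Rsad2: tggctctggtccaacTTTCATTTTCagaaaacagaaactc
Ifit1: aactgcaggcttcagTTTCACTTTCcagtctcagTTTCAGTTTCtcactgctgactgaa
Isg15: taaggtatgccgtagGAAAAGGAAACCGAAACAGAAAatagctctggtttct
Cxcl10: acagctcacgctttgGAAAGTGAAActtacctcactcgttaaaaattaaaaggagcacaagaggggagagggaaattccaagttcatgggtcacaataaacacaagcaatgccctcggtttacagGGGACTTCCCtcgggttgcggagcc
The Ifit3 stretch lies at chr19:34583358-34583431 on the plus strand, 171 to 98 bases before the start, and holds 2 ISRE cores read on the opposite strand. The Rsad2 stretch (chr12:26456548-26456587, minus strand, 135 to 96 bases before the start) holds 1. The Ifit1 stretch (chr19:34640770-34640828, plus strand, 119 to 61 bases before the start) holds 2 close together. The Isg15 stretch lies at chr4:156200860-156200911 on the minus strand, 93 to 42 bases before the start, and its matches overlap. The Cxcl10 stretch (chr5:92348968-92349117, minus strand, 228 to 79 bases before the start) holds an ISRE core at its 5′ end and an NF-kB site at its 3′ end, the only one among the 4 rule genes, where 1.38% of all promoters have that motif. A match is a run of letters, not a measured binding site, and a window without a match does not show that a gene lacks the element.

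The label was checked against the markers Ifit3, Rsad2, Cxcl10 and Ifitm3, of which the rule used the first 3. Ifit3, an antiviral protein of the IFIT family, was at 204 CPM (UMIs scaled to the total of the group) under control Ab against 16.04 in other microglia, and at 220 against 24.2 under anti-CD9 Ab. Rsad2 (viperin, an antiviral enzyme) was at 145 against 7.57 CPM and at 581 against 18.6 CPM. Under anti-CD9 Ab, Rsad2 was at 232 CPM in 132 cells without neutrophil markers, described below, and at 1516 CPM in 50 cells with them. Neutrophils of that library held it at 1795 CPM. Cxcl10, a chemokine that attracts T cells through Cxcr3, was at 1104 against 8.92 CPM and at 2436 against 36.0 CPM. Ifit2, the fourth gene of the rule, was at 171 against 14.6 CPM and at 361 against 30.1 CPM. These differences follow from the choice of cells.

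Ifitm3, a membrane protein that blocks virus entry and the only marker outside the rule, was higher in the interferon-responsive microglia of both libraries. Its level was 238 CPM against 118 under control Ab (log2 ratio 1.01, 95% interval 0.79 to 1.23) and 1101 against 413 under anti-CD9 Ab (1.42, 1.29 to 1.54). At 2000 UMIs per cell, 32.3% of the interferon-responsive cells had an Ifitm3 UMI under control Ab (23.1 to 42.6%; 62.9% without thinning), against 16.6% of other microglia, 10.1% of T cells and 7.08% of B cells. With anti-CD9 Ab the shares were 64.4% (56.4 to 71.8%; 81.9% without thinning), 40.3%, 23.7% and 17.1%. Ifitm3 does not single out these cells among myeloid cells, since it was at 746 and 2249 CPM in macrophages and at 1057 and 2148 CPM in neutrophils. The median depths before thinning were 1622 and 2282 UMIs in T cells and 6722 and 2079 in B cells under control Ab and anti-CD9 Ab, respectively.

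The 6 microglia genes of the rule stayed within 2-fold of other microglia. P2ry12, the ADP receptor of ramified microglia, was at 771 CPM against 1054 in other microglia under control Ab and at 601 against 690 under anti-CD9 Ab. Tmem119, a membrane protein that marks microglia, was at 253 against 262 and at 285 against 262 CPM. The other 4 genes of the rule were lower than in other microglia in both libraries, with log2 ratios of -0.29 to -0.45 under control Ab and -0.39 to -0.80 under anti-CD9 Ab, except Fcrls under control Ab (0.14). Over 15 further homeostatic genes the median log2 ratio was -0.07 under control Ab and -0.21 under anti-CD9 Ab. Of these, 0 and 1 were past 2-fold, the latter being Klf2, which was higher (1.03). In cells under anti-CD9 Ab the median sum of the 6 microglia genes was 6 UMIs, against 18 under control Ab. Scaled to the total, these genes summed to 1676 CPM against 3555 CPM under control Ab in interferon-responsive cells. In other microglia they summed to 2205 against 4053 CPM. Between the libraries 2 of the 6 were 2-fold lower in both groups of cells, Fcrls the lowest (log2 ratios -2.64 and -1.70). Its bearing on which cells passed the rule was not tested.

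The interferon sum fell off without a gap, so that the threshold cuts a range rather than separating clusters. The median sum of the chosen cells was 7 UMIs under control Ab (3 to 143) and 8 under anti-CD9 Ab (3 to 122). Just inside the threshold, 20 and 30 cells had a sum of 3, and just outside, 70 and 88 cells had a sum of 2. Isg15 was at 50.1 CPM just inside and 103 just outside under control Ab, and at 209 and 153 under anti-CD9 Ab. At the upper end, 27 cells under control Ab and 69 under anti-CD9 Ab had 12 UMIs or more. The 10 highest cells held 43.1% of all interferon-sum UMIs of the population under control Ab and 29.0% under anti-CD9 Ab.

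**Figure D1:**
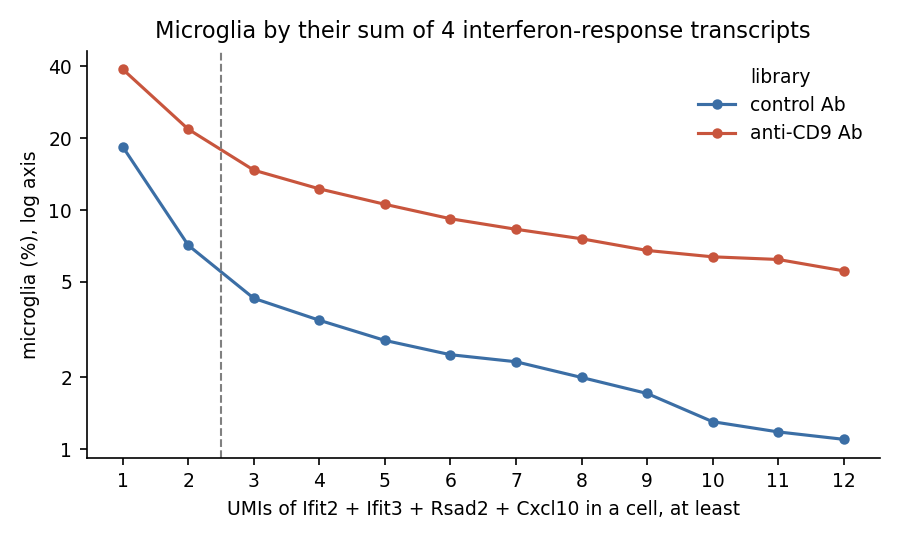
Share of microglia (%, log axis) with at least the number of Ifit2, Ifit3, Rsad2 and Cxcl10 UMIs given on the x axis, for the control Ab library (blue, 2458 microglia) and the anti-CD9 Ab library (red, 1240 microglia), with the threshold of the rule dashed. Neither curve shows a gap at the threshold, where the shares are 4.27% and 14.7%, and at 12 UMIs or more they are 1.10% and 5.56%.

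Interferon-responsive microglia made up 4.27% of the microglia under control Ab (95% exact binomial interval 3.51 to 5.15%) and 14.7% under anti-CD9 Ab (12.8 to 16.8%), 10.4 percentage points more (8.35 to 12.6). At 2000 UMIs per cell, with every condition of the rule applied after thinning, the shares were 2.98% of 1848 cells and 10.4% of 869 cells, and at 1000 UMIs they were 1.32% and 5.83%. With Cxcl10 left out of the sum, the shares were 2.60% and 7.34%, 4.73 percentage points apart. At 2000 UMIs per cell, 3.37% of T cells under control Ab and 8.95% under anti-CD9 Ab had a Cxcl10 UMI. Among B cells 2.65% and 7.25% did, and among other microglia, chosen for a low sum, 1.56% and 4.80%. The part of a Cxcl10 rise common to these cell types was not tested. The share of interferon-responsive microglia was higher under anti-CD9 Ab under every alternative to the rule or the cells that was tried, with differences between 4.51 and 14.7 percentage points. The exclusions of the rule also bear on it. Among all cells with 2 or more microglia UMIs, before the proliferation, macrophage and T cell exclusions, the shares with an interferon sum of 3 or more were 7.81% of 3750 cells and 14.2% of 2139 cells.

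The same interferon condition was met in other immune cells of the sort. At 1000 UMIs per cell, with cell types taken from the full counts, it was met by 1.45% of microglia under control Ab and 7.22% under anti-CD9 Ab. Macrophages met it in 1.98% and 11.1% of cells, T cells in 1.65% and 2.75%, and B cells in 0 of 138 and 1.62% of cells (the interval of the former reached 2.64%). Neutrophils met it in 1 of 15 cells under control Ab and in 41.5% of 1419 cells under anti-CD9 Ab (38.9 to 44.1%). Without thinning, the shares were 13.7% and 23.7% in macrophages, 3.50% and 5.89% in T cells, 8.51% and 36.6% in neutrophils, and 0.671% and 4.32% in B cells. Microglia were thus not the cells with the highest share in the anti-CD9 Ab library. In that library, predicted doublets were 46.7% of the T cells that met it without thinning, against 12.6% of all T cells. The shares were 75.0% against 10.2% in B cells, 37.2% against 20.7% in macrophages and 15.1% against 10.7% in neutrophils.

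**Figure D2:**
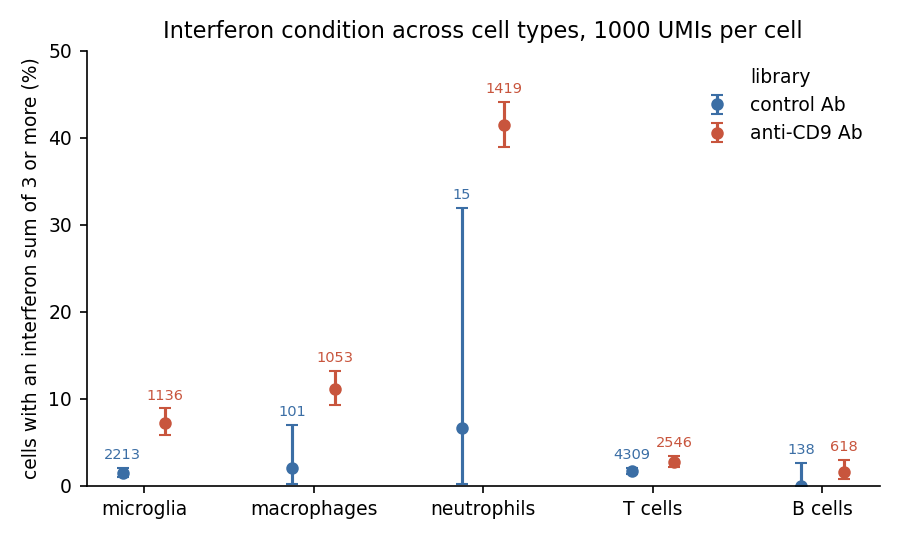
Share of cells (%) with an interferon sum of 3 or more UMIs after thinning to 1000 UMIs, by cell type on the x axis, for control Ab (blue) and anti-CD9 Ab (red), with 95% exact binomial intervals and the number of cells above each point. Neutrophils under anti-CD9 Ab stand highest at 41.5%, microglia go from 1.45% to 7.22%, and T cells and B cells stay under 3%.

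Few of the compared genes, the 4 interferon genes of the rule among them, set the interferon-responsive cells apart from other microglia. With control Ab, 66 of 6318 compared genes were 2-fold higher (1.04%) and 111 were 2-fold lower (1.76%). With anti-CD9 Ab, 239 of 5856 genes were 2-fold higher (4.08%) and 70 were 2-fold lower (1.20%), and with 20 CPM added to every value these numbers were 160 and 20. Among 5504 genes outside the rule compared in both libraries, 48 were 2-fold higher in both, 23 of them from the list of interferon-stimulated genes, and 10 were 2-fold lower in both. The counts rest on the same cells that the rule chose, and a gene that follows Ifit2, Ifit3, Rsad2 or Cxcl10 from cell to cell had to be higher.

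Antiviral effector genes led the genes that were higher in both libraries. Ifit1, which binds foreign RNA ends, was at 97.3 CPM against 7.12 under control Ab (log2 ratio 3.77, 3.30 to 4.25) and at 284 against 21.1 under anti-CD9 Ab (3.75, 3.37 to 4.13). Isg15, a ubiquitin-like protein that is joined to other proteins in the interferon response, was at 178 against 31.9 CPM (2.48, 2.20 to 2.77) and at 628 against 91.1 CPM (2.79, 2.58 to 2.99). Oasl1, of the oligoadenylate synthetase family, had log2 ratios of 3.35 and 2.71, and Mx1, an antiviral GTPase, of 2.36 and 2.74. All 4 genes were thus over 2-fold higher in both libraries. Of the list of antiviral effectors outside the rule, 8 of 12 compared genes were 2-fold higher under control Ab (median log2 ratio 1.24) and 13 of 16 under anti-CD9 Ab (1.60), and none was 2-fold lower. Bst2 (tetherin), which holds budding virus at the cell surface, had log2 ratios of 0.36 and 0.10.

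In the whole list of interferon-stimulated genes, 26 of 42 compared genes were 2-fold higher under control Ab and 34 of 49 under anti-CD9 Ab, with medians of 1.07 and 1.32, where the median of all compared genes was -0.03 and -0.06. At 2000 UMIs per cell, 20.8% of the interferon-responsive cells had an Isg15 UMI under control Ab and 47.5% under anti-CD9 Ab. The shares were 5.34% and 12.7% of other microglia, 16.9% and 21.5% of T cells, and 8.85% and 10.4% of B cells. Without thinning, the interferon-responsive cells had 52.4% and 61.5%.

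**Figure D3:**
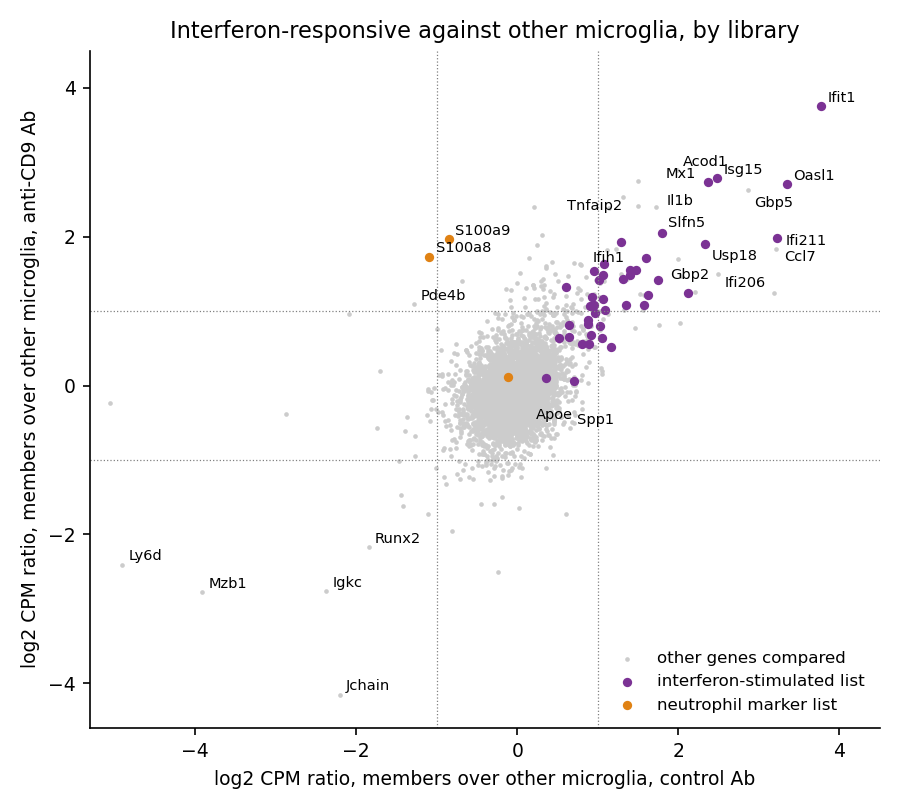
Log2 CPM ratio of interferon-responsive over other microglia in the control Ab library (x axis) and the anti-CD9 Ab library (y axis), 1 point per gene compared in both and outside the rule, with interferon-stimulated genes in purple, neutrophil markers in orange and 2-fold differences dotted. Ifit1 (3.77 and 3.75) stands at the upper right, Mzb1, Igkc and Jchain at the lower left, and S100a8 (-1.09 and 1.73) at the upper left.

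Some sensors of foreign nucleic acid and factors that carry the signal were also higher. Ifih1 (MDA5), a sensor of double-stranded RNA, was at 152 against 50.2 CPM under control Ab and at 189 against 57.4 CPM under anti-CD9 Ab (log2 ratios 1.60 and 1.72). Of the sensors and adaptors, 2 of 9 compared genes were 2-fold higher under control Ab (median 0.67) and 3 of 9 under anti-CD9 Ab (0.79). Irf7, which amplifies the interferon response, had log2 ratios of 1.57 (1.15 to 2.00) and 1.08 (0.69 to 1.46). Over the transcription factors of the response, 3 of 9 and 2 of 8 genes were 2-fold higher.

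The receptors did not move with their targets. Ifnar1 was at 48.1 CPM against 51.9 under control Ab (log2 ratio -0.11, -0.57 to 0.35) and at 77.2 against 76.8 under anti-CD9 Ab (0.01, -0.40 to 0.42). Ifnar2 was at 383 against 398 and at 363 against 378 CPM. None of the 7 receptors and kinases was 2-fold apart in either library, and their medians were -0.05 and -0.06. Usp18, which shuts off signaling at Ifnar2, was at 115 against 22.8 CPM and at 164 against 43.6 CPM (2.33, 1.98 to 2.68, and 1.91, 1.57 to 2.25). It was the 1 of 5 feedback inhibitors past 2-fold under control Ab, where 4 of 6 were under anti-CD9 Ab.

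Interferon transcripts themselves were nearly absent. Of the 7 interferon genes listed, 5 had no UMI in the interferon-responsive cells of either library. Ifnb1 (interferon beta) had 24 UMIs in a single cell under control Ab, 1 UMI under anti-CD9 Ab and none in other microglia. That cell held 2666 UMIs in all, with 115 of Cxcl10, 136 of Ccl4, 77 of Ccl3 and 17 of Rsad2. Ifng, the interferon of T cells and natural killer cells, had 1 UMI in the interferon-responsive cells of each library, and 11 and 2 UMIs in other microglia.

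Genes that interferon gamma also induces were higher as well. Gbp5, a guanylate-binding protein of cell-autonomous defence, was at 66.8 CPM against 9.15 under control Ab and at 416 against 67.5 CPM under anti-CD9 Ab (log2 ratios 2.87 and 2.63), and Gbp2 at 98.4 against 24.6 and at 575 against 176 CPM (2.00 and 1.71). Of the interferon gamma GTPases, 3 of 6 compared genes were 2-fold higher under control Ab and 6 of 10 under anti-CD9 Ab. In the p200 family, which includes DNA-binding interferon-inducible proteins, all 5 and all 8 compared genes were 2-fold higher, led by Ifi211 (3.23 and 1.98). Slfn5, of the Schlafen family, had log2 ratios of 1.80 and 2.05, and Ifi206, another p200 gene, of 2.49 and 1.498. Antigen presentation genes were mostly higher, but by less than 2-fold. Of 20 MHC class I genes, 18 were above other microglia under control Ab and 17 under anti-CD9 Ab (medians 0.42 and 0.23). Of the MHC class II genes, 8 of 8 and 8 of 9 were (0.30 and 0.11). None of these genes was 2-fold apart in either library. B2m, the light chain of MHC class I, was at 3743 against 2800 CPM and at 4055 against 3724 CPM.

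Chemokines for monocytes were part of the population's profile. Ccl2, a ligand of Ccr2, was at 517 CPM against 112 under control Ab (log2 ratio 2.21, 2.05 to 2.37) and at 865 against 363 under anti-CD9 Ab (1.25, 1.12 to 1.39). Ccl12, its close relative in mice, was at 648 against 160 CPM and at 1527 against 854 CPM (2.02 and 0.84). Ccl7, another Ccr2 ligand, had log2 ratios of 3.21 and 1.84, but 1 cell held 40.7% of its 59 UMIs under control Ab. At 2000 UMIs per cell, 43.8% and 51.9% of interferon-responsive cells had a Ccl2 UMI, against 13.2% and 30.01% of other microglia and 1.12% and 1.54% of T cells. Without thinning, the interferon-responsive shares were 63.8% and 57.7%. Of the chemokines outside the rule, 6 of 8 were 2-fold higher under control Ab and 7 of 10 under anti-CD9 Ab.

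Some inflammatory genes were over 2-fold higher in both libraries, while the count over the list of inflammatory cytokine genes was larger under anti-CD9 Ab. The difference between the counts was not tested. Acod1, the enzyme that makes itaconate, was at 177 against 44.7 CPM under control Ab and at 1278 against 172 CPM under anti-CD9 Ab (log2 ratios 1.98 and 2.89). Il1b was at 63.3 against 19.2 CPM, with 54 UMIs in 16 cells, and at 990 against 187 CPM (1.72 and 2.40), and Tnfaip2, a gene induced by tumor necrosis factor, had log2 ratios of 1.501 and 2.41. Of the list of inflammatory cytokine genes, 1 of 11 was 2-fold higher under control Ab (median 0.43) and 10 of 13 under anti-CD9 Ab (1.47). Under anti-CD9 Ab the count was 5 of 12 (0.82) with Cxcl10 left out of the rule and 7 of 12 (1.22) without predicted doublets. In the interferon-responsive cells under anti-CD9 Ab that lacked neutrophil markers, described below, Acod1 was at 543 CPM and Il1b at 318 CPM. All other microglia of that library held them at 172 and 187 CPM, so that Il1b was then within 2-fold.

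Of the 10 genes lower in both libraries, the 5 lowest were Mzb1, Ly6d, Igkc, Jchain and Runx2, which encodes a transcription factor. The first 4 are expressed in B cells or plasma cells, but not all of them only there. Under control Ab, the 111 of 6318 genes 2-fold lower were 58 of 6164 at a microglia sum of 4 or more and 29 of 5893 at 10 or more. Whether other microglia held cells of other types was not tested. Igkc was at 1593 CPM against 8234 under control Ab and at 429 against 2911 under anti-CD9 Ab (log2 ratios -2.37 and -2.76, the latter 0.027 at a microglia sum of 10 or more), and 1 interferon-responsive cell held 85.9% of its 1359 UMIs under control Ab. In other microglia under anti-CD9 Ab a single cell held 42.8% of the Igkc UMIs. Over all B and plasma cell markers the summed level was 1858 against 9398 CPM under control Ab and 627 against 3559 CPM under anti-CD9 Ab. The part of single cells rich in immunoglobulin transcripts in these values was not tested beyond these shares.

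The interferon-responsive cells were not uniform in which of the 4 rule genes they carried. With control Ab, 64 cells had 3 or more UMIs of Ifit2, Ifit3 and Rsad2, 16 cells had 1 or 2 of them and passed through Cxcl10, and 25 cells had Cxcl10 alone. With anti-CD9 Ab these classes held 91, 44 and 47 cells. Conversely, 39 and 43 cells had no Cxcl10 UMI. The classes were cut on UMIs of the rule, so a gene that follows Ifit2, Ifit3 and Rsad2 from cell to cell had to be lower where these were few, and the values are a description. Ifit1 was at 165, 0 and 10.4 CPM over the classes under control Ab and at 495, 82.1 and 23.4 CPM under anti-CD9 Ab. Isg15 was at 261, 88.1 and 46.6 CPM and at 990, 298 and 164 CPM. Under anti-CD9 Ab the share of predicted doublets went along, with 40.7%, 27.3% and 12.8% over the classes (6.25%, 6.25% and 8.0% under control Ab), and neutrophils of that library held Isg15 at 2081 CPM and Ifit1 at 815 CPM. Its part in the class differences was not tested.

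Ccl2 ran the other way. It was at 437, 440 and 787 CPM under control Ab and at 585, 857 and 1527 CPM under anti-CD9 Ab, highest where Cxcl10 was the only rule gene. Ccl12 under anti-CD9 Ab was at 1093, 1483 and 2586 CPM, while under control Ab it was at 696, 740 and 445 CPM, without that order. Cxcl9, a further Cxcr3 ligand, was at 24.5, 200 and 274 CPM under control Ab and at 467, 477 and 205 CPM under anti-CD9 Ab. Ifitm3 under control Ab was at 255, 194 and 233 CPM, and under anti-CD9 Ab at 1548, 734 and 480 CPM. P2ry12 stayed between 515 and 831 CPM in all 6 classes.

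**Figure D4:**
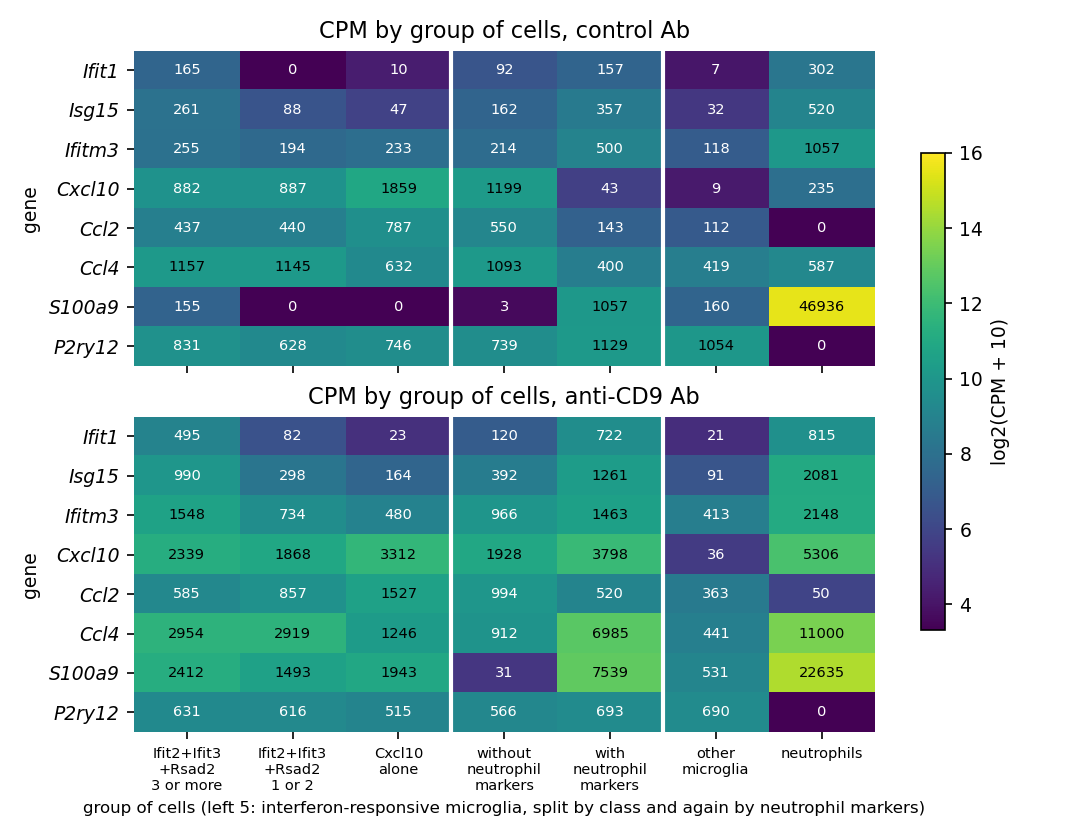
CPM (printed in each cell, color on a log2(CPM + 10) scale) of 8 genes on the y axis, in groups of cells on the x axis, under control Ab (top) and anti-CD9 Ab (bottom). The left 3 columns split the interferon-responsive microglia by their rule genes, the next 2 split the same cells by neutrophil markers, and the last 2 are other microglia and neutrophils. With anti-CD9 Ab, Ifit1 goes from 495 to 23.4 CPM over the first 3 columns while Ccl2 goes from 585 to 1527, and S100a9, one of the genes of the second split, is at 30.6 CPM without and 7539 CPM with neutrophil markers.

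Most interferon-responsive cells under control Ab, and a minority under anti-CD9 Ab, had 2 or more UMIs of the damage-associated genes Cst7 and Lpl. Cells with 2 or more UMIs of Cst7, a cystatin, and Lpl, lipoprotein lipase, at 2000 UMIs per cell made up 77.1% of interferon-responsive cells under control Ab (67.4 to 85.0%) against 50.7% of other microglia (48.2 to 53.3%). With anti-CD9 Ab they made up 21.3% (15.2 to 28.4%) against 14.4% (12.0 to 17.0%). Without thinning these shares were 85.7% and 45.8% under control Ab, and 28.0% and 19.2% under anti-CD9 Ab. With control Ab, 20 damage-associated genes summed to 84881 CPM in interferon-responsive cells, against 65263 CPM in all other microglia. With anti-CD9 Ab the sums were 25454 and 32907 CPM. The part of depth in these sums was not tested. In the 70 control Ab cells just outside the threshold (median 5526 UMIs) the list was at 94509 CPM, above the interferon-responsive cells. In the 88 such cells under anti-CD9 Ab (median 4023.5 UMIs) it was at 31059 CPM. As a range set by choosing cells on Cst7, Lpl and Spp1, genes of the same list, it was at 88445 CPM in 1077 other microglia with that Cst7 and Lpl sum and at 15679 CPM in 149 without any of the 3 genes under control Ab, and at 72578 CPM in 203 and 16091 CPM in 321 such cells under anti-CD9 Ab.

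Spp1 (osteopontin), a secreted matrix protein, was at 35893 CPM against 22710 in other microglia under control Ab (log2 ratio 0.66, 0.64 to 0.68) and at 4760 against 7093 under anti-CD9 Ab (-0.58, -0.63 to -0.53). In the cells just outside the threshold Spp1 was at 44877 CPM under control Ab and at 6962 CPM under anti-CD9 Ab, above the interferon-responsive cells in both libraries. Under anti-CD9 Ab the 10 highest interferon-responsive cells held 74.7% of the 3636 Spp1 UMIs (40.2% of 30626 under control Ab). At 2000 UMIs per cell, 35.6% of interferon-responsive cells under anti-CD9 Ab had a Spp1 UMI (44.0% without thinning), against 38.9% of other microglia, 17.3% of T cells and 16.2% of B cells. Under control Ab the shares were 90.6% (98.1% without thinning), 86.2%, 70.0% and 46.0%, so that a Spp1 UMI was common in lymphocytes too. Apoe, the lipid carrier, was at 17475 against 15680 CPM (0.16) and at 7818 against 11095 CPM (-0.50), and Trem2, a lipid receptor of microglia, had log2 ratios of 0.15 and -0.28. In summed UMIs these 3 genes were above other microglia under control Ab and below them under anti-CD9 Ab. Lpl was at 612 against 454 CPM and at 45.8 (35 UMIs) against 34.3 CPM, and Cst7 was at 1352 against 976 CPM and at 301 against 304 CPM. Of the list of 20 genes, 18 were above other microglia under control Ab and 13 were below them under anti-CD9 Ab, most within 2-fold. The medians were 0.25 and -0.12, the latter 0.056 when cells over 2% mitochondrial UMIs were left out, with Ch25h, a cholesterol hydroxylase, 2-fold higher in both libraries (1.56 and 1.02). Gpnmb was 2-fold lower under anti-CD9 Ab (-1.73). Within the interferon-responsive cells under control Ab, the 15 cells under the Cst7 and Lpl sum had Isg15 at 419 CPM (19 UMIs) and the 90 above it at 165 CPM. These 15 cells were shallower, with a median of 2412 UMIs against 6511.5, and the part of depth in the difference was not tested. Under anti-CD9 Ab 131 and 51 such cells had 663 and 556 CPM.

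Cd9, which encodes the target of the antibody, was at 4606 CPM in interferon-responsive cells under control Ab and at 1584 CPM under anti-CD9 Ab (log2 ratio -1.54, -1.63 to -1.45). In other microglia it was at 4011 and 1739 CPM (-1.21, -1.24 to -1.17). Syk, a kinase downstream of immune receptors, was at 116 and 178 CPM in interferon-responsive cells (0.62, 0.24 to 0.99) and at 107 and 158 CPM in other microglia (0.57, 0.42 to 0.72). Both genes thus differed between the libraries in the same direction in the interferon-responsive cells and in other microglia.

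Between the libraries, 410 of 5859 compared genes were 2-fold higher in interferon-responsive cells under anti-CD9 Ab (7.0%) and 279 were 2-fold lower (4.76%), against 4.08% higher and 5.30% lower of 10632 genes in other microglia. Of the interferon-stimulated genes, 29 of 51 were 2-fold higher and none lower (median 1.08). In other microglia the count was 28 of 50 (median 1.06). The 2 medians were close with the rule as it stands, but not under the alternatives below, and their difference was not tested. Isg15 went from 178 to 628 CPM in interferon-responsive cells (1.82) and from 31.9 to 91.1 CPM in other microglia (1.52), and Ifitm3 had log2 ratios of 2.21 and 1.80. Lymphocytes moved in the same direction. T cells went from 142 to 211 CPM for Isg15 and from 74.5 to 355 CPM for Ifitm3. B cells went from 34.5 to 86.8 CPM and from 51.7 to 207 CPM. The part of a rise shared by all cells in the microglial ratios was not tested. In interferon-responsive cells the list's median was 0.44 (1 of 26 genes 2-fold higher) once cells with markers of other cell types were left out, and 0.42 (2 of 25) at 2000 UMIs per cell, where other microglia were at 0.87 and 0.86. Without those marked cells, Ifit1 (-1.15), Rsad2 (-0.96), Cxcl10 (-0.40), Ifit2 (-0.03) and Oasl2 (-0.03) were lower under anti-CD9 Ab instead of higher (1.55, 2.00, 1.14, 1.08 and 1.27 with them). That alternative kept 36 cells under control Ab and 52 under anti-CD9 Ab.

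Other groups had medians farther from 0 than the interferon-stimulated list. All 10 compared interferon gamma GTPases were 2-fold higher under anti-CD9 Ab in interferon-responsive cells (median 2.41), as were all 11 in other microglia (2.27). Gbp2 went from 98.4 to 575 CPM and Gbp5 from 66.8 to 416 CPM. All 8 p200 genes were also 2-fold higher (median 1.44). Of 20 damage-associated genes, 14 were 2-fold lower in interferon-responsive cells (median -1.38) and 8 in other microglia (-0.92). Lpl was lowest in both, going from 612 to 45.8 CPM in interferon-responsive cells (-3.74). Homeostatic genes had a median of -0.62 and receptors and kinases of -0.08, with Jak2, a kinase of several cytokine receptors, as the 1 of 7 past 2-fold (1.23).

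**Figure D5:**
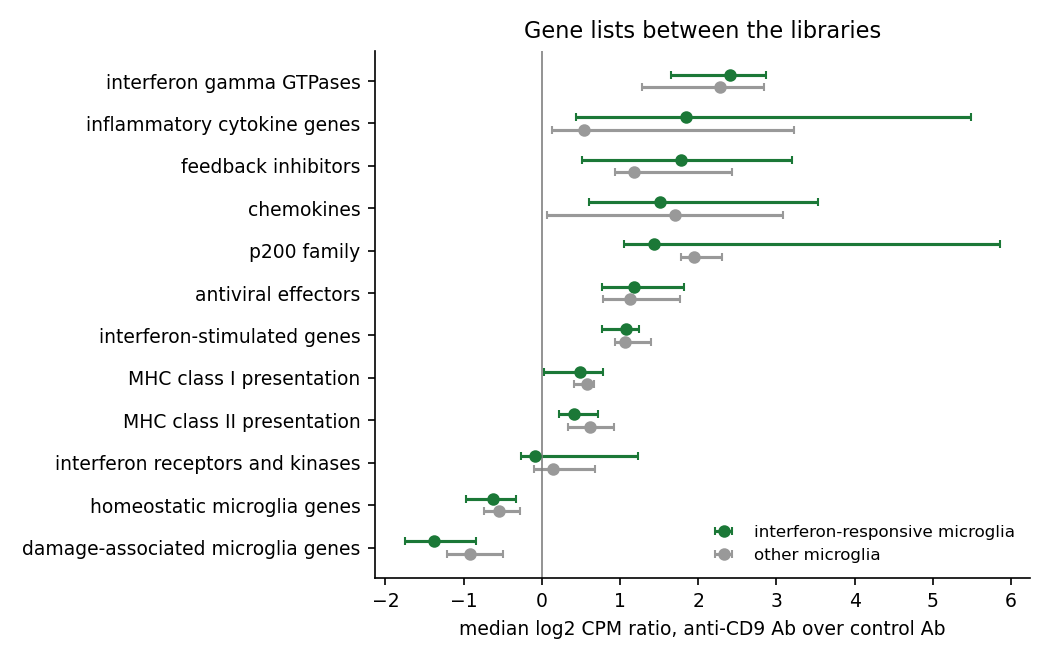
Median log2 CPM ratio of anti-CD9 Ab over control Ab (x axis) over the compared genes of 12 lists (y axis; marker lists of other cell types are not drawn), in interferon-responsive microglia (green) and other microglia (gray), with bars for the 95% order-statistic interval of the median over genes, which are not replicates. Among these 12, the interferon gamma GTPases stand highest (2.41 and 2.27) and the damage-associated genes lowest (-1.38 and -0.92), and the inflammatory cytokine genes are farthest apart between the cell groups (1.85 and 0.54).

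Some of the largest single-gene ratios between the libraries came from 1 cell each, and others did not. The hemoglobin genes Hbb-bs, Hba-a2, Hbb-bt and Hba-a1, which belong to red blood cells, were among the 8 genes highest under anti-CD9 Ab, and 1 cell held 98.5% of the 746 Hbb-bs UMIs. Cxcl2, a neutrophil attractant, went from 9.38 to 2167 CPM (log2 ratio 7.85) and Lcn2, an iron-binding acute-phase protein, from 11.7 to 868 CPM (6.21). In other microglia Cxcl2 went from 3.16 to 376 CPM (6.89) and Lcn2 from 26.4 to 248 CPM (3.23). Lymphocytes of the anti-CD9 Ab library held Cxcl2 at 393 CPM (T cells) and 397 CPM (B cells), no less than other microglia, and Lcn2 at 166 and 130 CPM. In interferon-responsive cells without neutrophil markers, as defined below, Cxcl2 was at 735 CPM under anti-CD9 Ab against 8.94 under control Ab and Lcn2 at 331 against 11.5 CPM. Upp1, a uridine phosphorylase, and Fpr1, a receptor for formyl peptides, had 1 UMI each under control Ab and 79 and 75 under anti-CD9 Ab. Among the genes lowest under anti-CD9 Ab, Sulf2, a heparan sulfatase, went from 77.4 CPM, spread over 41 cells, to 1.31 CPM, and Ptchd1 from 68.0 CPM, over 28 cells, to 2.62 CPM. Ctnna3 went from 119 UMIs to 0, a log2 ratio of -5.15 or lower when a floor of 3 UMIs in the group stands for the 0. Apod, Nkain2, Lsamp and Igha had 64.1 to 100% of their control Ab UMIs in 1 cell each.

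Neutrophil transcripts moved with the anti-CD9 Ab library. The summed level of 9 neutrophil markers was 565 CPM in interferon-responsive cells under control Ab and 4477 CPM under anti-CD9 Ab, against 694 and 1434 CPM in other microglia. The most abundant was Csf3r under control Ab and S100a9 under anti-CD9 Ab, and 1 and 0 of the 9 genes were at 0 UMIs in the interferon-responsive cells. S100a9, an alarmin of neutrophil granules, was at 89.1 CPM against 160 in other microglia under control Ab and at 2072 against 531 CPM under anti-CD9 Ab. At 2000 UMIs per cell, 22.5% of interferon-responsive cells under anti-CD9 Ab had an S100a9 UMI, against 9.59% of other microglia, 12.2% of T cells and 11.9% of B cells.

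The cells were then split by these transcripts. With anti-CD9 Ab, 50 of the 182 interferon-responsive cells had 2 or more UMIs of S100a8, S100a9, Retnlg and Cxcr2, and 66.0% of the 50 were predicted doublets. With control Ab, 6 of 105 cells did. The 50 cells held these 4 genes at 12478 CPM, against 37428 CPM in neutrophils and 52.1 CPM in the other 132 interferon-responsive cells, a contrast that the split itself sets. P2ry12 was at 693 CPM in the 50 cells and 566 CPM in the 132, and neutrophils were chosen to have none.

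The 132 cells without neutrophil markers had met the same interferon minimum, so their levels are again a description. In them Isg15 was at 392 CPM and Ifit1 at 120 CPM, against 162 and 91.9 CPM in the 99 such cells under control Ab, and Cxcl10, a gene of the rule, was at 1928 against 1199 CPM. The list of interferon-stimulated genes summed to 12266 CPM against 6388 CPM, and its median ratio between the libraries was 0.95. Over other microglia of the same library, again without such cells, 30 of 46 genes of the list were 2-fold higher under anti-CD9 Ab (median 1.29). In the 50 cells with neutrophil markers, Isg15 was at 1261 CPM, Ifit1 at 722 CPM and Cxcl10 at 3798 CPM, and in neutrophils at 2081, 815 and 5306 CPM. The share of interferon-responsive cells without such cells was 4.10% under control Ab and 12.2% under anti-CD9 Ab, 8.14 percentage points more (6.12 to 10.4).

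Several inflammatory genes followed the neutrophil markers. Ccl4, a chemokine for monocytes and T cells, was at 2563 CPM in all interferon-responsive cells under anti-CD9 Ab, but at 912 CPM without and 6985 CPM with neutrophil markers, beside 11000 CPM in neutrophils. Its log2 ratio between the libraries was 1.31 over all cells and -0.26 without the marked cells. Il1b was at 318 and 2787 CPM, beside 8388 CPM in neutrophils, and Cxcl2 at 735 and 5998 CPM, beside 15066 CPM. Ccl2 went the other way, with 994 CPM without and 520 CPM with neutrophil markers and 49.8 CPM in neutrophils, and Ccl12 was at 1807, 775 and 51.7 CPM. Saa3, an acute-phase gene, was at 3848 CPM without and 3052 CPM with the markers, and at 20368 CPM in macrophages of that library. At 2000 UMIs per cell, 51.9% of its interferon-responsive cells had a Saa3 UMI. So did 51.0% of its other microglia, 35.7% of its T cells and 30.7% of its B cells. The part of neutrophil RNA in the remaining differences between the libraries was not tested.

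Monocyte and macrophage transcripts also moved with the anti-CD9 Ab library. The 13 markers summed to 912 CPM against 1198 in other microglia under control Ab and to 2650 against 1799 CPM under anti-CD9 Ab, with 4 and 2 genes at 0 UMIs in the interferon-responsive cells. Lyve1 and Cd163, markers of macrophages at the brain borders, had no UMI in the interferon-responsive cells of either library, while Ccr2, the receptor of Ccl2 on monocytes, had 4 UMIs under control Ab and 60 under anti-CD9 Ab. The most abundant, Lyz2 (lysozyme), was at 838 against 987 CPM and at 1144 against 1011 CPM. Chil3, a chitinase-like protein of monocytes, had the highest log2 ratio over other microglia under anti-CD9 Ab (3.36). Between the libraries 6 of the 7 compared markers were 2-fold higher in interferon-responsive cells (median 4.07) and 5 of 7 in other microglia (1.81). Their part in the results was not tested beyond the alternative without cells that carry markers of other types. Astrocyte markers summed to 348 CPM in interferon-responsive cells under control Ab and 427 CPM under anti-CD9 Ab, against 413 and 414 CPM in other microglia, and dendritic cell markers to 27.0 and 90.3 CPM, against 42.5 and 117 CPM. T cell markers, kept low by the bar on Cd3 UMIs, summed to 31.6 and 36.7 CPM (2 and 3 of 9 at 0) and natural killer cell markers to 3.52 and 0 CPM. Oligodendrocyte markers summed to 306 and 77.2 CPM, and neuron markers to 3.52 and 1.31 CPM. Mitochondrial genes took a median of 1.47% of UMIs under control Ab and 1.49% under anti-CD9 Ab, against 1.13% and 1.46% in other microglia.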

How the data were processed

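Microglia from 2 libraries of thalamic CD45+ cells (10x Genomics 3' v3.1) were analysed. The authors deposited raw UMI counts per gene and cell barcode, made per the labels with Cell Ranger 8.0.0 on GRCm39; the study's methods name another version and build. The members and gene lists were chosen with earlier results of these data known. The study's mitochondrial limit was 2%, tried here as an alternative to 5%. Doublets were not removed. They were marked by the share of simulated doublets among 50 nearest neighbours, at 0.8% per 1000 barcodes, a rate that was set. For each group of cells the UMIs were added up and given as CPM. Genes were compared when their expected count in the smaller group was at least 20, and called at 2-fold. Intervals of log2 ratios were Poisson, of shares exact binomial (Clopper-Pearson) and of differences Newcombe, at 95%. PCR duplicates were removed by UMI, and the intervals cover counting error only. Ratios were checked on simulated counts. Named genes were those of the rule, the 15 highest and 5 lowest in both libraries, the 8 highest and 8 lowest between libraries, the extremes and most abundant gene of each list, and 10 genes of the pathway and the study (among them Cd9, Spp1 and Syk). The remaining genes (Cxcl9, Ifnar2, Ccl2, Ccl12, B2m, S100a8, Oasl2, Ch25h and others) were chosen after their values were seen. T cells had 2 or more Cd3 UMIs, macrophages 2 or more of Ms4a7 and F13a1, and B cells 2 or more of Cd79a and Ms4a1, and neutrophils had 5 or more of Csf3r, Retnlg, Cxcr2, S100a8 and S100a9, all without microglia UMIs (T cell UMIs were barred from B cells and neutrophils, macrophage UMIs from neutrophils). A total of 12 alternatives to the cells or rule (3 chosen after seeing the data) and 6 to the filter or scaling were tried. Promoters were matched by symbol, and their GRCm38.p6 coordinates do not apply to the build of the counts. The tools were scikit-learn 1.9.0, pandas 2.3.3, Matplotlib 3.10.9, SciPy 1.17.1 and NumPy 2.4.6 in Python 3.11.15. Some named genes are not reported here.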

Additional observations from a re-analysis of the deposited data

Results flagged for a closer look

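Of the genes compared in both libraries outside the rule, 2 were past 2-fold in opposite directions. S100a8, which forms a dimer with S100a9 in neutrophils, had a log2 ratio of interferon-responsive over other microglia of -1.09 under control Ab and 1.73 under anti-CD9 Ab. The former was within 2-fold, at -0.14, without predicted doublets, at -0.23 with Cxcl10 left out of the sum and at -0.52 at a microglia sum of 4 or more, and lay between -0.85 and -0.98 with 20 CPM added, at a microglia sum of 10 and at an interferon sum of 2. Pde4b, a phosphodiesterase that breaks down cyclic AMP, had -1.28 and 1.10, but the former was 0.059 at an interferon sum of 2 or more, where the ratios no longer point in opposite directions. It was at 115 CPM against 279 in other microglia under control Ab, where 1 interferon-responsive cell held 36.7% of the 98 UMIs, and at 312 against 146 CPM under anti-CD9 Ab. With 1 library per antibody, the difference between the ratios was not tested.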

How the results depend on the processing

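No paired analysis was possible because each antibody had 1 library. The share of interferon-responsive microglia (4.27% under control Ab, 14.7% under anti-CD9 Ab, difference 10.4 percentage points) was 7.12%, 21.8% and 14.7 points at an interferon sum of 2 or more, 2.85%, 10.6% and 7.72 at 5 or more, 2.60%, 7.34% and 4.73 without Cxcl10, 2.87%, 10.5% and 7.63 without cells that carry markers of other types, 2.98%, 10.4% and 7.38 at 2000 UMIs, 1.32%, 5.83% and 4.51 at 1000 UMIs, and 5.45%, 12.7% and 7.25 at a microglia sum of 10 or more. Without predicted doublets it was 11.6% under anti-CD9 Ab (difference 7.40) and without neutrophil markers 12.2% (8.14). Microglia sums of 10 or more and leaving out cells with neutrophil markers or hemoglobin were chosen after seeing the data. The 66 of 6318 genes 2-fold higher under control Ab were 36 of 945 at 2000 UMIs, 41 with 20 CPM added, 111 of 8516 and 39 of 3299 at minimum expected counts of 10 and 50, and 6964 of 20757 with no minimum, which also moved the median of all genes from -0.03 to 0.21. The 239 of 5856 under anti-CD9 Ab were 148 of 4459 without doublets, 79 of 1857 without markers of other types, 121 of 1811 at 2000 UMIs, 99 of 2270 at a microglia sum of 10, 143 of 3049 at a minimum of 50 and 5107 of 18304 with no minimum, so that fewer genes were compared in most of these. The interferon-stimulated list over other microglia under control Ab (1.07) was 1.498 without markers of other types, 1.64 at 2000 UMIs and 0.82 with 20 CPM added, under anti-CD9 Ab (1.32) it was 1.498 without Cxcl10 and 0.95 at a microglia sum of 10, and between the libraries (1.08) 0.44 and 0.42 without markers of other types and at 2000 UMIs. Single-gene ratios between the libraries that reversed were Igkc (0.62 at 2% mitochondrial UMIs, 0.70 without doublets, 0.17 at 2000 UMIs), Ccl4 (-0.38 without doublets, -0.80 without markers of other types, -0.26 without neutrophil markers), Ifit1 (-1.15), Rsad2 (-0.96), Cxcl10 (-0.40), Ifit2 (-0.028) and Oasl2 (-0.033) without markers of other types, and Rtp4 (-0.092), Slfn5 (-0.086) and Ccl7 (-0.17) at 2000 UMIs. Over other microglia, Nkain2 (0.33) and Pde4b (0.059) reversed under control Ab at an interferon sum of 2, and Hbb-bs (-3.64) at a sum of 5 and Igkc (0.027) at a microglia sum of 10 under anti-CD9 Ab. Causes were not tested. Of the values of single genes under all alternatives, 8675 stayed within their interval, 1562 moved and 18 reversed. Depth limits the single genes: 105 cells with 853265 UMIs set the precision under control Ab.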

Other observations

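The exclusions of the rule removed further cells with microglia transcripts and an interferon sum of 3 or more. Among cells with 2 or more microglia UMIs, those with a UMI of Ms4a7 or F13a1 met it in 98 of 433 cases under control Ab (22.6%, 18.8 to 26.9%) and in 75 of 668 under anti-CD9 Ab (11.2%, 8.93 to 13.9%), a share lower under anti-CD9 Ab. Those with a Cd3 UMI met it in 132 of 953 (13.9%) and 29 of 230 cases (12.6%), and those with 2 or more UMIs of Mki67 and Top2a in 15 of 79 (18.99%, 11.0 to 29.4%) and 30 of 103 cases (29.1%, 20.6 to 38.9%).

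Cells of other types also met the interferon condition under anti-CD9 Ab. The 274 macrophages held Saa3 at 23844 CPM, Ccl5 at 5733 CPM and Ifitm3 at 3351 CPM, and the 801 neutrophils held Ccl4 at 20571 CPM. In interferon-responsive microglia these genes were at 3632, 1511, 1101 and 2563 CPM, respectively, while Ccl12 was at 1527 CPM against 128 in these macrophages and 44.4 in these neutrophils. The cell with the most hemoglobin, an interferon-responsive microglial cell of 5385 UMIs under anti-CD9 Ab, held 1305 UMIs of the 4 hemoglobin genes, 7 of the microglia genes and 3 of Rsad2.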
